A study of Mus musculus with 16 samples.

Results

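The genes described here are 10 receptors of the tumour necrosis factor (TNF) receptor family that B cells and their neighbours use: Cd40, Tnfrsf13b, Tnfrsf13c, Fas, Cd27, Tnfrsf1a, Tnfrsf1b, Tnfrsf9, Tnfrsf18 and Ltbr. They were taken by name, 10 of the 43432 gene rows in the deposited RNA-seq table, and followed into 358 of the 962700 deposited Ago2 CLIP regions, those on the same strand that overlap their annotated spans. The cells were splenic B cells of mice of the strain labelled C57B6L/J, cultured for 4 days with IL-21 (10 ng/ml), IL-4 (25 ng/ml) and an antibody against CD40 (500 ng/ml). The KO group is read from the series title as lacking miR-221 and miR-222, and the Flox group, whose table columns are headed WT, as carrying the floxed locus; every group had the same culture. Each genotype had 4 libraries for RNA-seq and 4 for Ago2 HITS-CLIP. The age and sex of the mice, the Cre line and whether replicates were separate mice are not given in the sources used here, so p-values measure only the spread between these samples.

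The miRNAs that the study deleted act through the same seed, which is why both are shown. These are the RefSeq mature sequences (GRCm38.p6, chromosome X, minus strand, 19146307 to 19146329 and 19146901 to 19146923), written 5′ to 3′ with the seed, bases 2 to 8, in capitals.
mmu-miR-221-3p: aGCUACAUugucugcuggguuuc
mmu-miR-222-3p: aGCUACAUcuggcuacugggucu
A perfect seed match in an mRNA reads AUGUAGC. No genome sequence was used here, so seed matches under the CLIP regions of these receptors were not searched.

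TNF receptors are membrane proteins that bind trimeric ligands and pass the signal to TRAF adaptors, which lead to NF-kB, or, in those with a death domain, also to caspases. In B cells CD40 receives T cell help, and FAS is induced on activation and can trigger death. BAFF-R (Tnfrsf13c) binds the survival factor BAFF, and TACI (Tnfrsf13b) binds both BAFF and APRIL. The antibody in the culture is directed at CD40 itself, and every sample received it.

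RNA-seq values are normalized counts, which are reads per gene divided by 1 size factor per library. Library depth was 22947689 to 39616596 reads. The deleted hairpins cannot serve as a check of the genotype labels, since Mir221 had 0 reads in the KO libraries and 4 in all Flox libraries, and Mir222 had 0 in all 8. KO 1 and KO 3 stood apart, at -38.0 and -35.6 on the first principal component (33.5% of the variance) against -15.4 and 7.48 for KO 2 and KO 4 and 14.5 to 26.5 for Flox. The 7 B cell markers summed to 365460 to 446390 normalized counts in KO and 350220 to 437680 in Flox. Of T cell markers, Cd3d, Cd3e, Cd3g, Cd4 and Cd8a had means of at most 6.98 in either group and Cd8b1 had 0 reads, while the sum of the 11 markers, 2010 to 2528 in KO and 1818 to 2173 in Flox, was mostly Lck. Of 9 marker lists, 4 had an exact permutation p of 0.0286, the smallest possible with 4 against 4 libraries (0.0643 after Benjamini-Hochberg adjustment). NK cell sums were 177.3 to 254.4 in KO and 116.1 to 169.1 in Flox, led by Prf1 with Ncr1 at 0. Stromal and endothelial sums were 769.5 to 962.9 and 549.6 to 698.8, led by Pecam1 with Col1a2 at means of at most 0.775. Dendritic cell sums were 3715 to 4300 and 4414 to 5113, led by Flt3 and Zbtb46 with Cd209a at most 0.475. Platelet sums were 37 to 56.1 and 57.9 to 76.5, led by Itga2b with Ppbp at 0. Macrophage (exact permutation p = 0.6), neutrophil (0.714) and erythroid (0.257) sums overlapped between the groups. Their part in the receptor values was not tested, and in bulk RNA fewer cells of a type and less RNA per cell cannot be told apart.

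Of the 10 receptors, 7 passed the filter of a mean of 10 normalized counts over the 8 libraries and were tested. None of these 7 passed the threshold, an adjusted p of 0.05 in limma-trend over all 13091 genes tested, where 9 genes passed (0.0687%), 2 of them lower in KO (0.0153%). None of the 7 had an unadjusted p under 0.05 (15.1% of all genes tested did), and edgeR (0.0687% of genes called) and DESeq2 (1.52% called) on recovered reads called 0 of them as well. In the authors' deposited table, which calls 1.58% of genes with an FDR, none of the 7 has an FDR under 0.05. The median log2 fold change of the 7 was -0.12, with 1 positive and 6 negative, beside a median of -0.01 over all genes tested. The negative ones include Tnfrsf9, which passed the filter only through Flox (means of 9.45 in KO and 17.1 in Flox).

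**Figure D1:**
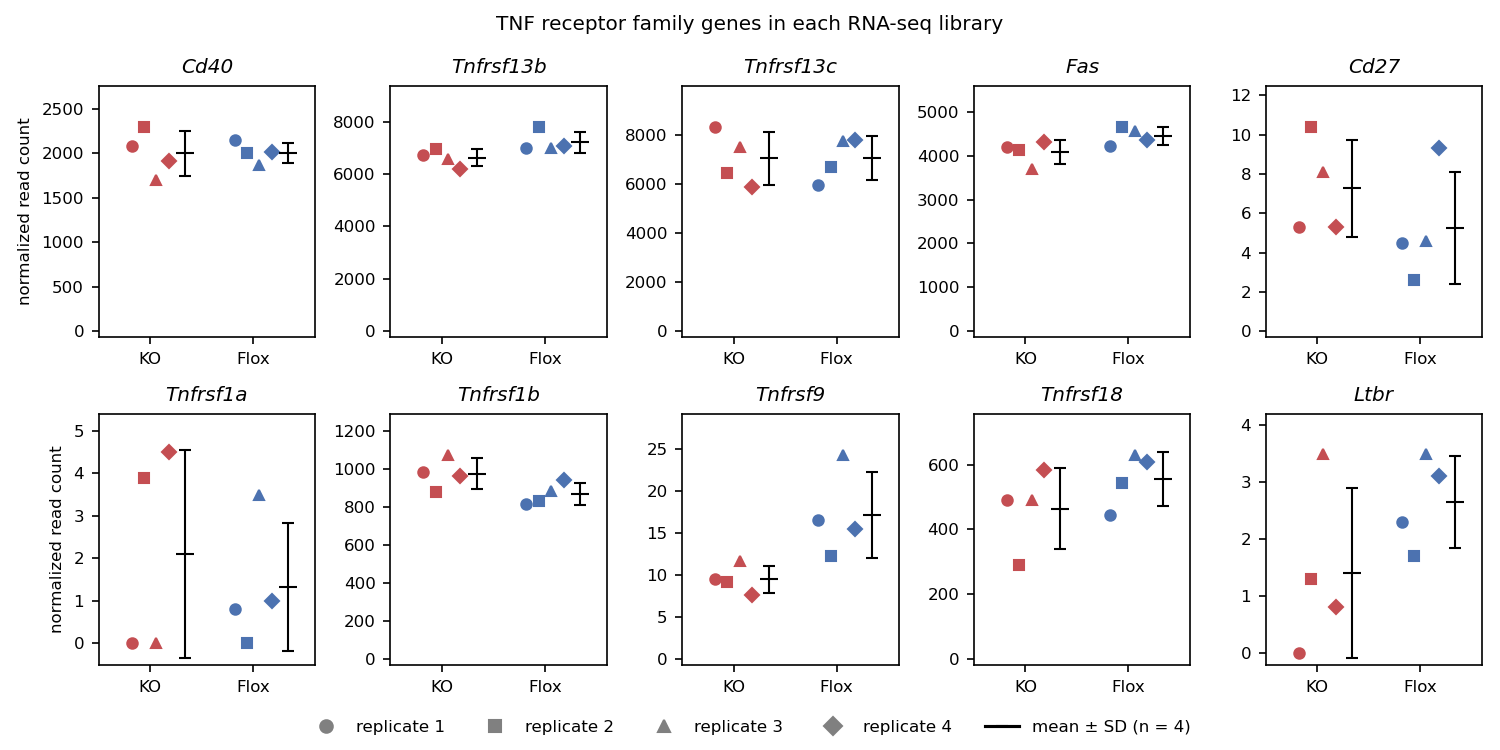
Normalized read counts (y axis, linear, its own scale in each panel) of the 10 receptor genes in the 4 KO and 4 Flox RNA-seq libraries; marker shapes give the replicate number and bars the mean ± SD. KO and Flox points overlap in Cd40 and Tnfrsf13c, and lie apart in Tnfrsf13b and Tnfrsf9, where KO is lower.

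Cd40, the receptor that the culture antibody engages (ENSMUSG00000017652, GRCm38 chromosome 2, 165055627 to 165072948, plus strand), had 2082, 2297, 1703 and 1913 normalized counts in KO libraries 1 to 4. In Flox libraries 1 to 4 it had 2147, 1998, 1868 and 2012. The KO libraries held both the highest and the lowest value, and the groups overlapped. The means were 1999 ± 252 in KO and 2006 ± 114 in Flox (SD, n = 4 each), a log2 fold change of -0.01 with a 95% interval of -0.23 to 0.21 (limma adjusted p = 0.966). As a ratio the interval runs from 0.851 to 1.16, and its sign turned without KO 1 and KO 3 (0.07).

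Tnfrsf13b encodes TACI, which binds BAFF and APRIL and is known to restrain B cell numbers (ENSMUSG00000010142, chromosome 11, 61126755 to 61149372, plus strand). It was at 6727, 6981, 6577 and 6202 normalized counts in KO libraries 1 to 4 and at 6988, 7809, 7013 and 7060 in Flox libraries 1 to 4. Every KO library lay below every Flox library, but KO 2 and Flox 1 differed by under 1 SD of either group. The log2 fold change was -0.12 (SE 0.08, 95% interval -0.29 to 0.04, limma adjusted p = 0.428), and it was -0.13 without KO 1 and KO 3 and -0.09 without Flox 2, the highest library.

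Tnfrsf13c encodes BAFF-R, the main BAFF receptor for survival of mature B cells (ENSMUSG00000068105, chromosome 15, 82221744 to 82224339, minus strand). Its values were 8313, 6441, 7505 and 5864 normalized counts in KO libraries 1 to 4. They were 5930, 6692, 7742 and 7797 in Flox libraries 1 to 4. KO 4 and Flox 1 were the lowest and KO 1, Flox 3 and Flox 4 the highest, so the spread within a group exceeded the difference between groups. The means were 7031 ± 1092 and 7040 ± 898 (SD, n = 4 each), with a log2 fold change of -0.01 (95% interval -0.28 to 0.27, limma adjusted p = 0.988). Its estimate moved to -0.19 without KO 1 and KO 3, and to 0.14 with a correction for GC content and gene span.

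Cd27, a receptor for CD70 found on T cells (ENSMUSG00000030336, chromosome 6, 125232622 to 125237010, minus strand), was barely read. It had 5, 8, 7 and 7 reads across KO libraries 1 to 4 and 6, 3, 4 and 9 in Flox libraries 1 to 4, which is 7.28 ± 2.47 and 5.25 ± 2.85 normalized counts. It fell under the filter and was not tested. The whole span of 4389 nt lies within Vamp1 on the opposite strand, and since the sources used here do not say whether counting used strand, these few reads cannot be told apart from reads of Vamp1.

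Among the death domain receptors, Fas was read deeply and Tnfrsf1a hardly at all. Fas (ENSMUSG00000024778, chromosome 19, 34290659 to 34327770, plus strand) had 4203, 4130, 3705 and 4325 normalized counts in KO libraries 1 to 4 and 4212, 4660, 4575 and 4350 in Flox libraries 1 to 4. KO 4 lay above Flox 1, so the groups overlapped, and KO 3 was the lowest of the 8. The log2 fold change was -0.12 (SE 0.08, 95% interval -0.29 to 0.05, limma adjusted p = 0.449), and -0.07 without KO 1 and KO 3. Tnfrsf1a, TNF receptor 1 (ENSMUSG00000030341, chromosome 6, 125349362 to 125362484, plus strand), had 0, 3, 0 and 6 reads across KO libraries 1 to 4 and 1, 0, 3 and 1 in Flox libraries 1 to 4. These 9 and 5 reads per group are near the limit of detection, since a library with 0 reads allows up to 3 reads, which is 2.25 normalized counts in the deepest and 3.91 in the shallowest library.

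The receptors without a death domain that cells use for costimulation differed in how far they were read. Tnfrsf1b, TNF receptor 2 (ENSMUSG00000028599, chromosome 4, 145213463 to 145246870, minus strand), had 981, 879, 1074 and 960 normalized counts in KO libraries 1 to 4 and 815, 832, 881 and 942 in Flox libraries 1 to 4. The KO values were the higher on average, with KO 2 inside the Flox range. The log2 fold change was 0.16 (SE 0.10, 95% interval -0.04 to 0.37, limma adjusted p = 0.408), the only positive one of the 7, and 0.08 without KO 1 and KO 3.

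Tnfrsf18 encodes GITR, a costimulatory receptor best known on regulatory T cells (ENSMUSG00000041954, chromosome 4, 156026164 to 156028895, plus strand). It was at 492, 290, 491 and 584 normalized counts in KO libraries 1 to 4 and at 444, 543, 631 and 608 in Flox libraries 1 to 4. KO 2 was the lowest of the 8, and the other KO libraries lay inside the Flox range. The log2 fold change was -0.29 (SE 0.20, 95% interval -0.74 to 0.15, limma adjusted p = 0.481), and it rested on KO 2, without which it was -0.08. It was -0.42 without KO 1 and KO 3 and -0.15 with the span and GC correction. An antisense RNA row, Gm16008, covers the whole span of Tnfrsf18 at a mean of 3.40 normalized counts.

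Tnfrsf9 encodes 4-1BB, a receptor induced on activated T cells (ENSMUSG00000028965, chromosome 4, 150914562 to 150946102, plus strand). It had 9, 7, 10 and 10 reads across KO libraries 1 to 4 and 22, 14, 21 and 15 in Flox libraries 1 to 4, or 9.50, 9.10, 11.6 and 7.60 normalized counts against 16.5, 12.2, 24.3 and 15.5. All KO values lay under all Flox values, by a gap of less than 1 normalized count between KO 3 and Flox 2. The log2 fold change on the scale of log2 of the value plus 1 was -0.77 (SE 0.36, 95% interval -1.55 to 0.02, limma adjusted p = 0.337). It was -0.47 with a pseudocount of 10, and it rests on 36 KO and 72 Flox reads. Camta1 on the opposite strand overlaps 28781 of its 31541 nt at a mean of 459 normalized counts, so antisense reads cannot be told apart from its own.

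Ltbr, the lymphotoxin beta receptor of stromal and myeloid cells (ENSMUSG00000030339, chromosome 6, 125306571 to 125313885, minus strand), had 0, 1, 3 and 1 reads across KO libraries 1 to 4 and 3, 2, 3 and 3 in Flox libraries 1 to 4. No library exceeded 3 reads. It was not tested.

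With Tnfrsf13b and Tnfrsf9, 2 of the 7 tested receptors had groups that did not overlap, both lower in KO, where 7.97% of all genes tested did not overlap, 3.79% lower and 4.18% higher in KO. Neither had an interval that excluded 0. Tnfrsf9, with means of 9.45 in KO and 17.1 in Flox, passed the filter of 10 only through Flox. Its lower KO values are therefore favoured by the filter. The 3 receptors that were not tested, Cd27, Ltbr and Tnfrsf1a, are neighbours on chromosome 6, with gaps of 69560 and 35476 nt between their annotated spans. On chromosome 4, by contrast, neighbours were read at different depths: Tnfrsf18 lies 9551 nt from Tnfrsf4 (OX40), which had means of 78.7 ± 6.86 (KO) and 79.7 ± 13.6 (Flox), and Tnfrsf1b lies 20266 nt from Tnfrsf8 (CD30), which was at 6146 ± 642 and 6687 ± 624. The table gives no transcript length, so levels are not ranked between genes.

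**Figure D2:**
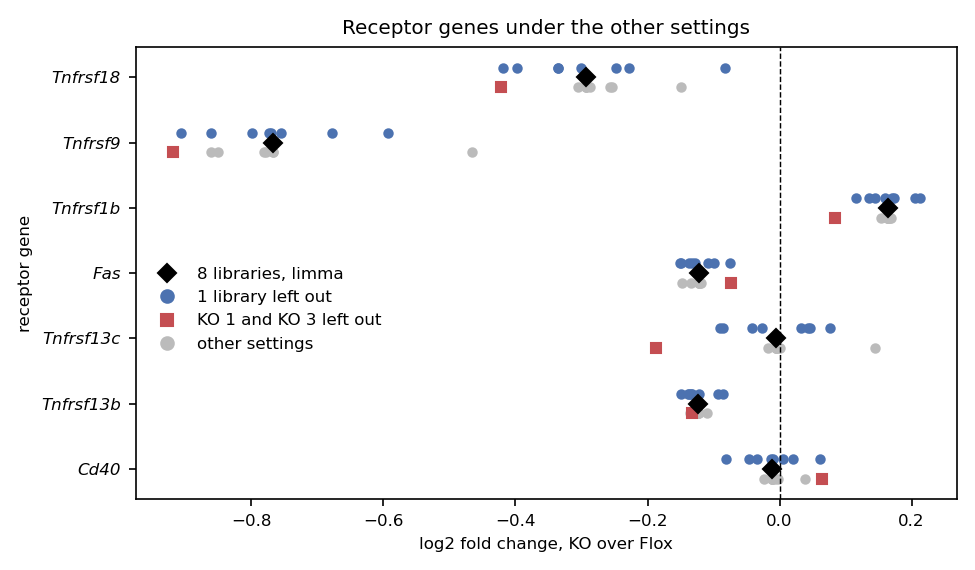
Log2 fold change, KO over Flox (x axis), of the 7 tested receptors (y axis) with all 8 libraries (diamonds), with 1 library left out (blue), without KO 1 and KO 3 (squares) and under the other settings (grey). Cd40 and Tnfrsf13c scatter across 0, Tnfrsf13b and Fas stay between -0.15 and -0.07, and leaving out KO 2 brings Tnfrsf18 from -0.29 to -0.08.

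Among the 18 other TNF receptor family genes, 12 were tested, 5 with a positive and 7 with a negative log2 fold change (median -0.06). Of these 1 fell in limma, where 0.0153% of all genes tested did. It was Tnfrsf26, a receptor gene of a cluster on chromosome 7. Its values went from 1309, 1670, 1526 and 1656 normalized counts in Flox to 429, 356, 469 and 324 in KO (log2 fold change -1.97, SE 0.13, limma adjusted p = 3.86e-05). Its neighbours Tnfrsf22 and Tnfrsf23, decoy receptors for TRAIL, also had all KO values under all Flox values, as 3.79% of all genes tested did. Their log2 fold changes were -0.82 (limma adjusted p = 0.238) and -1.08 (limma adjusted p = 0.258), the latter -0.68 with a pseudocount of 10. Tnfrsf23, with means of 9.75 in KO and 21.8 in Flox, passed the filter only through Flox, which favours a lower KO value. DESeq2 (adjusted p = 0.00270) and the authors' deposited table (FDR 0.00231) call Tnfrsf22. Tnfrsf8 and Relt, the other family genes with a mean of at least 1000, had log2 fold changes of -0.12 and -0.16 with overlapping groups, or -0.06 without KO 1 and KO 3 and -0.08 with the span and GC correction, respectively. The receptors of plasma cells and of nerve growth factor, Tnfrsf17 (BCMA) and Ngfr, were not tested, at highest values of 4.40 and 3.50 in any library.

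**Figure D3:**
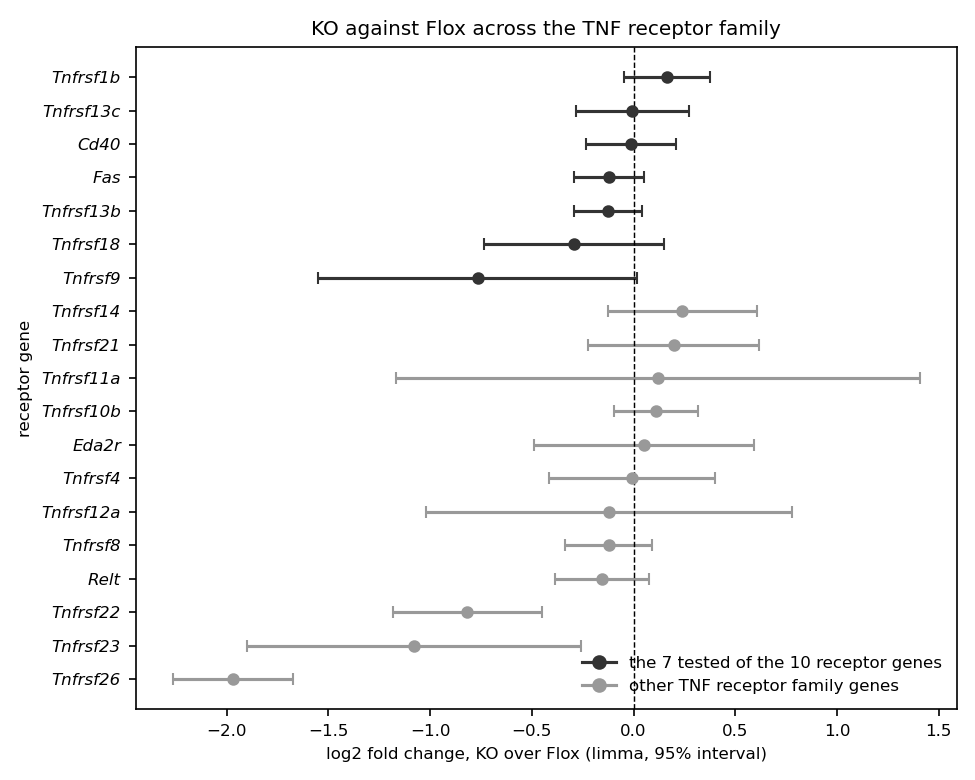
Log2 fold change, KO over Flox, with its 95% limma interval (x axis) for each tested receptor of the family (y axis); black marks 7 of the 10 genes described here and grey the other 12. The interval spans 0 for all 7, and excludes it for Tnfrsf26, Tnfrsf22 and Tnfrsf23, all lower in KO.

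The ligands were measured in the same cells. Of 18 TNF family ligand genes 9 were tested, 3 positive and 6 negative with a median of -0.05, and 0 passed in limma. Transcripts for the ligands of CD40, BAFF-R and TACI were at or near 0: Cd40lg reached 1.5 normalized counts at most, Tnfsf13b (BAFF) 7.60, and Tnfsf13 (APRIL) had 0 reads in all 8 libraries. Cd70, the ligand of CD27, was at 187, 244, 121 and 193 normalized counts in KO libraries 1 to 4 and 222, 356, 345 and 413 in Flox libraries 1 to 4. Only KO 2 reached into the Flox range, above Flox 1. Its log2 fold change was -0.85 (SE 0.23, limma adjusted p = 0.239), or -0.59 without KO 1 and KO 3. DESeq2 (adjusted p = 0.0323) and the authors' deposited table (FDR 0.0286) call it lower in KO. Tnfsf9, the ligand of 4-1BB, was at -0.32, or -0.17 with the span and GC correction. Tnfsf4, the OX40 ligand, was at -0.18, or -0.12 without KO 1 and KO 3. Lymphotoxin alpha (Lta) was at -0.17, and at -0.00240 with the same correction.

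Among 22 receptor-proximal adaptors and enzymes, 11 had positive and 11 negative log2 fold changes (median -0.00461), and 0 passed in limma. An unadjusted p below 0.05 was found for 3, a share no higher than the 15.1% of all genes tested. The ubiquitin ligase Birc3 (cIAP2), which acts with TRAF2, had 7519, 7937, 7114 and 7161 counts, normalized, in the KO libraries beside 6786, 6256, 6115 and 6043 in the Flox libraries (log2 fold change 0.24, SE 0.08, limma adjusted p = 0.246). Traf3, the adaptor that holds back the noncanonical NF-kB pathway under CD40 and BAFF-R, had 1762, 1927, 1968 and 1714 in the KO libraries beside 1691, 1546, 1540 and 1521 in the Flox libraries (0.23, limma adjusted p = 0.271). In these 2 genes every KO library lay above every Flox library (4.18% of all genes tested), and in 2 others, Traf1 and Traf5, every KO library lay below every Flox library (3.79%). The span and GC correction took Traf3 to 0.13. Ripk1, a kinase under TNF receptor 1, was at 0.45, or 0.22 without KO 1 and KO 3. Traf1, an NF-kB-induced adaptor, was at -0.28, or -0.12 without KO 3, and the adaptor Traf5 was at -0.17 (limma adjusted p = 0.401).

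Of 15 genes of the NF-kB pathway 7 were positive and 8 negative (median -0.06), 0 passed in limma and 1 had an unadjusted p under 0.05. That was the subunit Rel, at 0.39 (SE 0.17, limma adjusted p = 0.313) and 0.21 without KO 1 and KO 3. Bcl3, Relb and Tnip1, a nuclear IkB protein, a noncanonical subunit and an inhibitor of the pathway, were at 0.26, -0.20 and 0.16, or 0.16 without Flox 2 for Bcl3, and -0.08 and 0.10 without KO 1 and KO 3 for Relb and Tnip1. Of 19 genes known to be induced by CD40 or NF-kB in B cells 18 were tested, 5 positive and 13 negative (median -0.08), and 0 passed in limma. An unadjusted p below 0.05 was found for 5, where 15.1% of all genes tested had one, and of these 5 genes 4 were lower and 1 higher in KO. The higher one was Fcer2a, the low-affinity IgE receptor CD23, at 0.30 (limma adjusted p = 0.330), with 49805 and 46944 normalized counts in KO 1 and KO 3, 33894 and 33151 in KO 2 and KO 4, and 31435 to 33235 in Flox. Among the lower ones the survival factor Bcl2a1d had a mean of 371 ± 127 in KO beside 746 ± 72.4 in Flox (log2 fold change -1.08, limma adjusted p = 0.238), and DESeq2 calls it (adjusted p = 0.00554). It was at -0.76 without KO 1 and KO 3. Bcl2a1a was at -1.60, or -0.99 without KO 3. The authors' deposited table gives no p-value for Bcl2a1d or Bcl2a1a. Another copy on the list, Bcl2a1b, had higher means, 1199 ± 133 in KO and 1257 ± 178 in Flox (log2 fold change -0.06, limma adjusted p = 0.812). Since the Bcl2a1 genes are near-identical copies, the share of reads each received is uncertain. The chemokine Ccl3 was at -1.57 on means of 6.23 in KO and 18.9 in Flox, or -0.82 with a pseudocount of 10. Ccl3 passed the filter only through Flox, which favours a lower KO value. Bcl2l1, which encodes the survival factor Bcl-xL, was at -0.23.

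**Figure D4:**
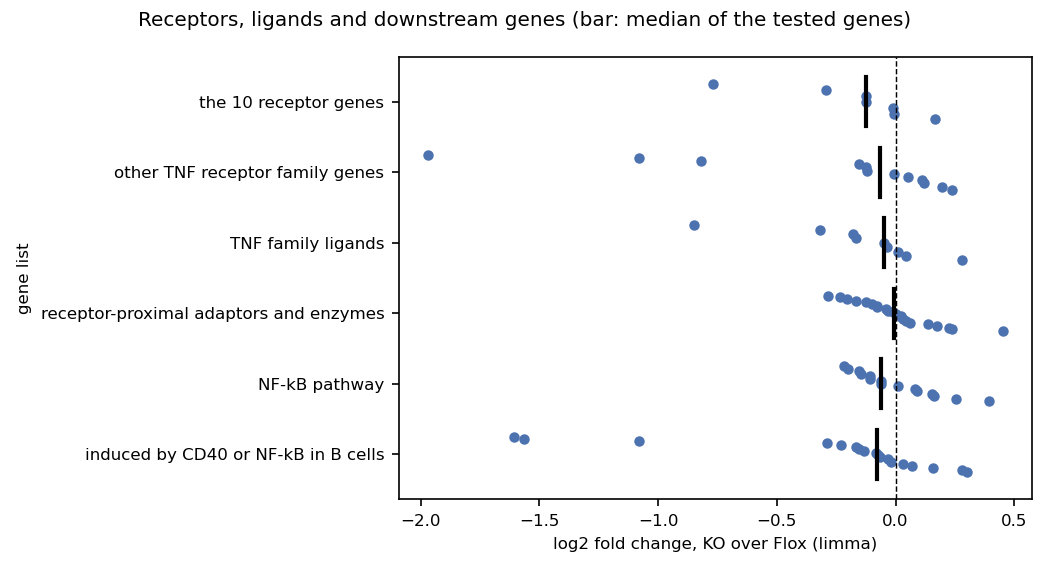
Log2 fold change, KO over Flox (x axis), of each tested gene (points) in the 6 gene lists (y axis), with the list's median as a bar. The medians lie between -0.12 for the 10 receptor genes and -0.00461 for the adaptors, and the points farthest to the left are Tnfrsf26, Bcl2a1a and Ccl3.

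Ago2 HITS-CLIP sequences RNA fragments crosslinked to Ago2, the protein that carries miRNAs. The deposited dCLIP output compares a pair of pooled conditions that its header does not name, in bins of 5 nt. Each bin has a difference score and 1 of 3 states, called here negative, common and positive after the sign of the difference. No direction by genotype is given, and no error between replicates can be. Regions were found on 6 of the 10 receptors: 207 on Fas, 69 on Cd40, 40 on Tnfrsf13c, 29 on Tnfrsf13b, 12 on Tnfrsf1b and 1 on Tnfrsf9. Of these 358 regions 102 (28.5%) were negative, 212 (59.2%) common and 44 (12.3%) positive, where the shares over all regions on tested genes were 31.2%, 59.0% and 9.81%.

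Tnfrsf18, Cd27, Tnfrsf1a and Ltbr had no region on their strand. Of all tested genes 14.1% had none, and of those with a mean of at least 100, as Tnfrsf18 has, 5.18%. The receptors with no region include the 3 that were too weakly read to be tested.

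As a share of the annotated span Tnfrsf13c was the receptor most fully covered, with bins over 83.0% of its 2596 nt, against 39.6% for Fas, 28.2% for Cd40, 10.8% for Tnfrsf13b and 2.14% for Tnfrsf1b. Such a share is raised by its short span. In nucleotides its bins covered 2155, fewer than in Fas (14680), Cd40 (4890) and Tnfrsf13b (2450). Of the 40 regions of Tnfrsf13c 11 (27.5%) were positive and 8 negative, and both states occurred along the whole gene. Its 3 regions with the highest deposited score (35.6, 28.2 and 21.9) were all positive. They lie 322 nt before, across, and 787 nt before the annotated 3′ end, at 82222066 to 82222125, 82221741 to 82221805 and 82222531 to 82222565. Their mean differences were 0.41, 0.36 and 0.28.

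In Tnfrsf13b the Ago2 regions gathered at the 3′ end, with 13 of 29 (44.8%) within 1000 nt of it, as in Tnfrsf13c (18 of 40) and Tnfrsf1b (8 of 12), where 8.04% of regions on tested genes lie so near. The span of Tnfrsf13c is short, so such a share is larger by construction there. All 5 positive regions of Tnfrsf13b lay within 1352 nt of the annotated 3′ end. The 3 with the highest scores were positive, at 61149306 to 61149405 (score 21.3, across the end), 61147946 to 61148020 (score 16.3) and 61149211 to 61149255 (score 15.2). Of the 7 negative regions, 5 lay within 1000 nt of the end, so both states occurred there.

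Cd40 and Fas carried most of their regions inside the gene, as tested genes in general did, where 8.04% of regions lay within 1000 nt of the 3′ end. In Cd40 the region nearest the annotated 3′ end was 1173 nt before it, and 47 of 69 regions (68.1%) were common, 19 negative and 3 positive. The highest score, 15.4, belonged to a positive region of 20 nt at 165068321 to 165068340, with negative (165063926 to 165063965) and positive (165068796 to 165068825) regions next at 6.90 each. In Fas 12 of 207 regions (5.80%) lay within 1000 nt of the 3′ end. Its highest score, 20.7, was a negative region 20585 nt before the end (34307146 to 34307185, mean difference -0.44). A negative region near the end followed (34327276 to 34327370, score 14.2, mean difference -0.29), and then a positive one (34311566 to 34311620, score 14.1, mean difference 0.39). Exons and introns were not told apart here.

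Tnfrsf1b had 9 common, 2 negative and 1 positive region, the last at 145214381 to 145214455, 918 nt before the 3′ end, with a score of 5.80. The single region of Tnfrsf9 was negative (150927011 to 150927095, score 3.90), far inside the gene. Averaged over all bins of a gene, the differences were small in the receptors with more than 1 region: -0.03 in Cd40, -0.04 in Fas, -0.01 in Tnfrsf1b, 0.01 in Tnfrsf13c and 0.0030 in Tnfrsf13b. In Tnfrsf9 the average was -0.19, over the 17 bins of its single region.

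**Figure D5:**
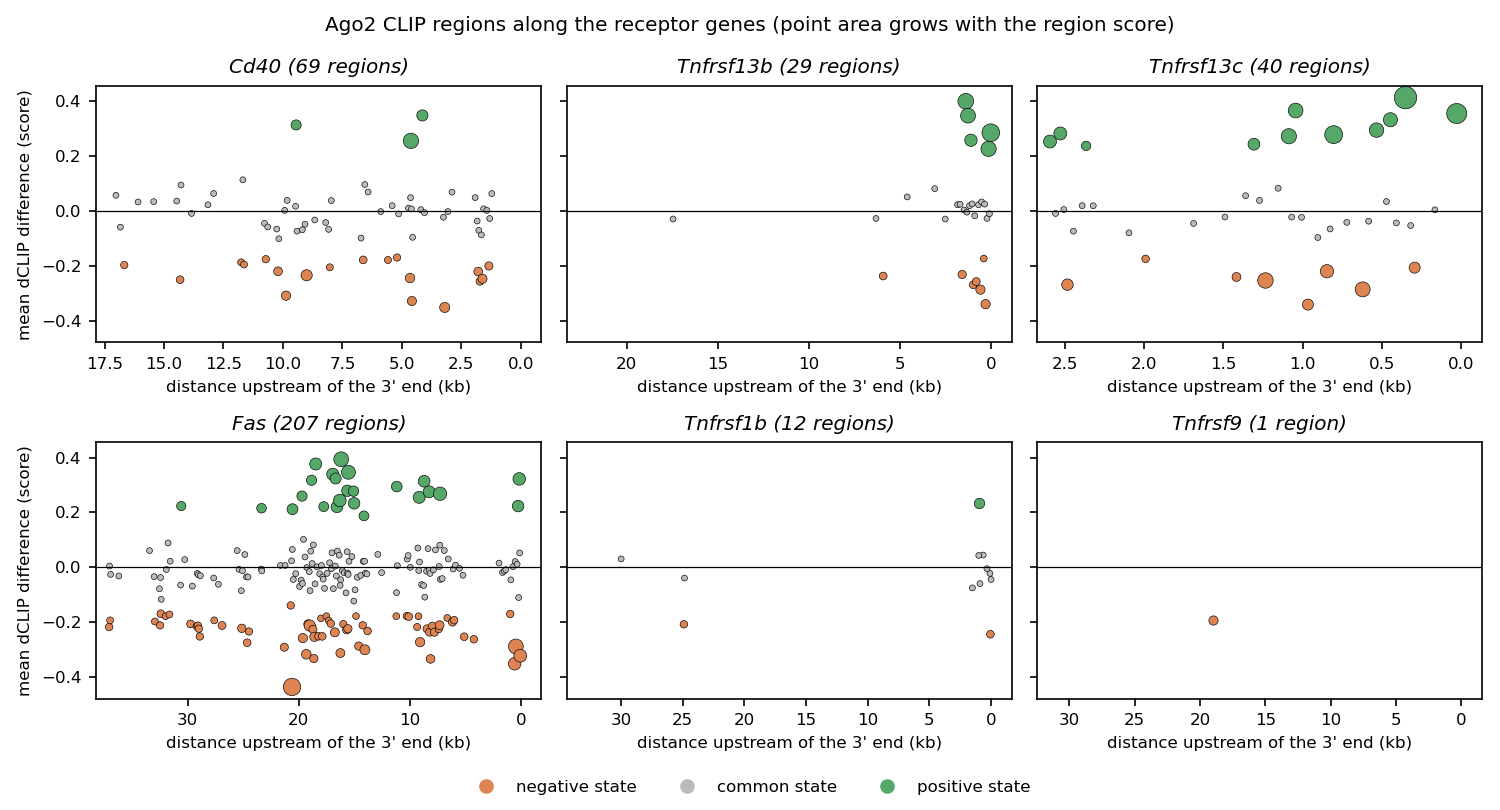
Mean dCLIP difference (y axis, a score with no direction by genotype) of each Ago2 region by its distance upstream of the annotated 3′ end in kb (x axis) in the 6 receptor genes with regions; point area grows with the deposited score and colour gives the state. Tnfrsf13c is covered along its span with its largest positive regions near the 3′ end, the positive regions of Tnfrsf13b gather there, and Fas and Cd40 carry regions throughout.

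The genes whose profile over the 8 RNA-seq libraries was most like that of the B cell receptors were named by the root mean square difference of log2 values, each centred on its own mean, among 10137 genes with a mean of at least 100. For Cd40 these were Atpaf2 (0.0225), Polrmt (0.0282) and Lmnb2 (0.0314), where the spread of Cd40 about its own mean was 0.123. For Tnfrsf13b they were Btla (0.0447), Glud1 (0.0472) and Zfp598 (0.0483), beside a spread of 0.0894. For Tnfrsf13c they were Fam53b (0.0544), Tom1l2 (0.0594) and Ttyh3 (0.0729), beside a spread of 0.180.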

How the data were processed

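The authors' deposited RNA-seq values are a signal, gene counts divided by a size factor per library and rounded to 1 decimal; at least 99.989% of nonzero values gave whole reads within 0.1 read. The deposited table also holds variance-stabilized log2 values, the authors' fold change ratio and log2 fold change, p-values and GC percent, per the file headers. The deposited CLIP files give a score per bin and region; 4 columns of per-condition tags and mutations name no genotype and were not used. The submitters' processing notes name cutadapt, Bowtie2, SAMtools, STAR, DESeq2, DESeq and mm9, without versions or roles. Gene positions fit GRCm38 (99.8% of 32588 symbols overlap their RefSeq GRCm38.p6 span), and CLIP positions are given 1-based. The notes do not say which data mm9 refers to, and the build of the CLIP positions was not tested. The last Fas region ended at 34327770, the end of the gene span. Tnfrsf13c regions ran from 82221741 to 82224350 on a span of 82221744 to 82224339.

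The main test was limma-trend (version 3.58.1), applied to log2(value + 1), with Benjamini-Hochberg adjustment, two-sided, over genes with a mean of at least 10; edgeR 4.0.16 and DESeq2 1.42.0 ran on the recovered reads. Scripts were tested on simulated data. The genes, lists and named-gene rule (all 10 receptors, other receptors called, not overlapping or with a mean of at least 1000, up to 4 genes per list by p, 3 regions per receptor by score, 3 most alike genes for Cd40, Tnfrsf13b and Tnfrsf13c) were chosen with earlier results of these data known. Cd40lg, Tnfsf13b, Tnfsf13, Tnfrsf4, Tnfrsf17, Ngfr, Tnfrsf21, Traf5, Fcer2a and Bcl2a1b were named after their values were seen. Alternatives were TMM scaling, other filters and pseudocount, edgeR, DESeq2, a replicate block, libraries left out, and a GC and span correction. Intervals and floors of 3 reads cover counting error or these libraries only.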

Additional observations from a re-analysis of the deposited data

Results flagged for a closer look

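In 82 groups of 4 libraries (the named genes, the marker sums and the ratio of Tnfrsf13b to Tnfrsf13c), 4 had a highest or lowest library whose gap to the next library, as a share of the group's range, exceeded Dixon's 95% critical value, where chance gives about 5%. Flox 2 was high for Tnfrsf13b, at 7809 normalized counts. Flox 3 was low for Tnfrsf22, at 299.9. Flox 1 was high for Traf3, at 1691. Flox 4 was low for the summed stromal and endothelial markers, at 549.6.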

How the results depend on the processing

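None of the 7 tested receptors passed under any of the 17 other settings run, with 0 calls in each. The count of all genes called was 9, from 8 to 17 with 1 library left out (17 without KO 2 and 14 without KO 4), 6 without KO 1 and KO 3 together, and 199 with DESeq2 on recovered reads; the cause was not tested. Replicate numbers showed no sign of pairing (correlations of same-numbered libraries from -0.0943 to 0.00275). Low correlations cannot exclude that same-numbered samples were paired, and the labels do not say. A replicate block gave 11 calls and 0 among the receptors. Of 472 fold changes of 28 named genes, 458 kept their sign and side of the threshold. The 11 that turned belong to Cd40 and Tnfrsf13c, both near 0. Cd40 ran from -0.082 to 0.062 with 1 library left out, and was 0.065 without KO 1 and KO 3 and 0.038 with the span and GC correction. Tnfrsf13c ran from -0.091 to 0.077 with 1 library left out, and was 0.14 with that correction and 0.00019 with edgeR. The other 3, Tnfrsf22, Cd70 and Bcl2a1d, passed with DESeq2 only. A CLIP score of at least 5 left 53 of the 358 regions, by construction, as common regions score 0; a width of at least 20 nt left 329. Depth limits Cd27, Tnfrsf1a and Ltbr, at under 10 reads in every library.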

Other observations

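The ratio of Tnfrsf13b to Tnfrsf13c within a library, which no size factor changes, was 0.809, 1.08, 0.876 and 1.06 in KO libraries 1 to 4 and 1.18, 1.17, 0.906 and 0.905 in Flox libraries 1 to 4 (exact permutation p = 0.457, two-sided). Each genotype held a pair of libraries above 1 and a pair below it.

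Among the other receptors of the family, Ago2 regions were most numerous on Tnfrsf8, with 95, of which 60 were common. Tnfrsf26, the receptor that fell in KO, had 12 positive regions of 34 (35.3%) and a mean difference over its bins of 0.30. Over all regions on tested genes 9.81% were positive. Its RNA differed between the groups (means of 395 in KO and 1540 in Flox), and the part of RNA level in the CLIP difference was not tested. Tnfrsf21, a death domain receptor with means of 84.3 ± 17.8 (KO) and 72.5 ± 4.50 (Flox) normalized counts, had 10 regions, all within 1000 nt of its 3′ end, of which 4 were negative, 5 common and 1 positive. The highest score, 30.9, was that of a negative region, and the positive region had a score of 10.4.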
